A study of Homo sapiens with 12 samples.

Results

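The 35 genes described here act in mitosis, from entry through the spindle and the kinetochore to exit, and were taken by symbol from a table of 57905 genes. All 35 were found in the table and all 35 passed the filter on low values, as did 14699 genes in all. Expression came from bulk, strand-specific mRNA sequencing of PC9, HCC827 and HCC4006, established human lung cancer cell lines that carry an activating EGFR mutation. In each line, cells that the labels call dormant had been kept for 2 weeks in 100 nM osimertinib, an inhibitor of mutant EGFR, together with 30 nM trametinib, which blocks the kinase MEK, on plates of a larger size. Their controls had received the solvent DMSO and were harvested after 24 hours. Drug, time under treatment and plate size therefore cannot be told apart. Each of the 6 groups has 2 libraries from duplicate plates, and since no source says that these were separate cultures, p-values measure only the spread between these samples, which may be technical.

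A dividing cell enters mitosis when cyclin B activates the kinase CDK1, which leads to chromosome condensation, breakdown of the nuclear envelope and assembly of the spindle. The kinetochore, built on the centromere, holds each chromosome to spindle microtubules, and the spindle checkpoint blocks the anaphase promoting complex until every chromosome is attached. That complex, switched on by CDC20, then marks cyclin B and securin for destruction, and the cell divides. Most of these genes are transcribed in the second gap phase and in mitosis itself, through promoters that share CCAAT boxes and a cell cycle genes homology region, CHR, and are silent in resting cells. Complexes of the MuvB core bind the CHR, as a repressor with RBL2 or RBL1 and E2F4 in resting cells, and as an activator with MYBL2 and FOXM1 in cycling cells.

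The promoter letters are shown as a description, and their part in the differences was not tested. RefSeq windows of 300 bases, from 250 before to 50 after the start on GRCh38.p14, were found for 29 of the 35 genes. AURKA, TPX2, BIRC5, UBE2C, TTK and CENPM are named only. Printed are the last 140 bases before the start of 7 genes, 5′ to 3′ on the strand of the gene, with CHR letters (TTTGAA or TTTAAA) and CCAAT in capitals, on either strand, so that TTCAAA and ATTGG are the same motifs read from the other strand.
CCNB1, chr5:69167010-69167149, plus strand: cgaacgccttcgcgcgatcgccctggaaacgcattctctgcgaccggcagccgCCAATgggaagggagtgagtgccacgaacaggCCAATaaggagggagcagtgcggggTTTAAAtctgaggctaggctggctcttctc
CCNB2, chr15:59105006-59105145, plus strand: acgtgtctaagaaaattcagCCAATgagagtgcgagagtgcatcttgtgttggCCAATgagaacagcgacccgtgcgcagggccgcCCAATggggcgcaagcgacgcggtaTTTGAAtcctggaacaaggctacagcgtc
CKS2, chr9:89311055-89311194, plus strand: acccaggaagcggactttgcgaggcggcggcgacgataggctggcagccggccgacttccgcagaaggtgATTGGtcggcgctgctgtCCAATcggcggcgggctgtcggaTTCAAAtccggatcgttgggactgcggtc
PLK1, chr16:23678749-23678888, plus strand: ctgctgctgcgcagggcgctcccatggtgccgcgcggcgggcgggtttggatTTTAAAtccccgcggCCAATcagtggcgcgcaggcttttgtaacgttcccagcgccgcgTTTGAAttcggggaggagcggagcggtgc
KIF20A, chr5:138178972-138179111, plus strand: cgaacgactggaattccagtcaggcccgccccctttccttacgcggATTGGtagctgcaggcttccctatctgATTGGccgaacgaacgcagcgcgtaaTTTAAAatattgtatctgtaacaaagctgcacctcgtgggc
CDC20, chr1:43358841-43358980, plus strand: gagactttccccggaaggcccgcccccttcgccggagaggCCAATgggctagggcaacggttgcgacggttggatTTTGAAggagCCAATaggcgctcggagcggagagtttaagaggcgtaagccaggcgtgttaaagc
CENPE, chr4:103198344-103198483, minus strand: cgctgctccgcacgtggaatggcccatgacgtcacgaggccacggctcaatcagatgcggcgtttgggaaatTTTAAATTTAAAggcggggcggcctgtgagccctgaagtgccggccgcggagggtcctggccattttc

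The CHR letters nearest to the start had their first base 29 bases before it in CCNB2, CKS2 and PLK1. In CCNB1 they stood 30 bases before the start and in KIF20A 41 bases before it. In CDC20 they stood 65 bases before the start, and CENPE held 2 adjoining copies at 68 and 62 bases and no CCAAT in its window. Further copies stood at 88 and 148 bases in PLK1, 193 in CCNB2, 178 in CDC20 and 195 in CENPE. Over the 29 windows, 26 (89.7%) held TTTGAA or TTTAAA on either strand, against 27.9% of the windows of 27305 genes. Those without were CCNA2, BUB1 and AURKB, which are not printed above, while every printed gene held CHR letters. CCAAT on either strand was found in 24 (82.8%), against 39.7% of all, and both kinds of letters in 21 (72.4%), against 11.2%. The E2F letters TTCGCGC or TTCCCGC, searched on both strands, were found in 3 (10.3%), against 10.2%. Limiting the CHR letters to the last 60 bases before the start, a window chosen after the data were seen, left 17 (58.6%), against 6.37% of all, and 17 (58.6%) held at least 2 CCAAT, against 12.9%. TTTAAA reads the same on both strands. Matches shared bases in MKI67, between TTTGAA and CCAAT on the other strand, and in HMMR and PTTG1, between CCAAT on one strand and CCAAT on the other. These are letters in a window, not measured binding, and no protein binding was measured in these samples.

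Libraries differed in quality, and for 2 of them the replicate was a poor match. The second library of dormant HCC4006 correlated with the first at a Pearson r of 0.654 across tested genes and listed 1948 of them at 0, against 368 to 802 in the other 11 libraries. The HCC827 DMSO pair correlated at 0.909, with the second library taken as the one that stood apart, and the other 4 pairs at 0.979 to 0.991. Both libraries were left out together as a check that was chosen with earlier results known, and those values are given beside the main ones. Read counts were not used here, and the spacing of the lowest FPKM values among U6 genes put the second HCC4006 dormant library at 35% of the depth of the deepest library and the others at 50% to 100%, an estimate that rests on 10 to 27 values a library. None of the 35 genes was listed at 0 in any library. All 6 epithelial markers were detected, with sums of 962 to 22966 FPKM in dormant and 1250 to 16749 FPKM in DMSO libraries. In HCC4006 their median difference, on the log2(FPKM + 1) scale, was -2.94 with all libraries and -0.52 without both that stand apart. With all libraries 5 of the 6 had a negative difference there. The keratin KRT19 had 363 and 9.9 FPKM in dormant HCC4006, against 2446 and 2533 FPKM in DMSO HCC4006. EPCAM, the marker without a negative difference, had 209 and 429 FPKM in dormant HCC4006, against 194 and 286 FPKM in DMSO HCC4006. The groups of CDH1 overlapped, with 51.8 and 25.9 FPKM in dormant HCC4006, against 38.4 and 83.4 FPKM in DMSO HCC4006. GAPDH, an enzyme of glycolysis that most cells express highly, had 3755 and 6.72 FPKM in dormant HCC4006, against 11709 and 8663 FPKM in DMSO HCC4006. Of the lung lineage markers NKX2-1, NAPSA and SFTPB, NKX2-1 was at 0 in all 4 PC9 libraries, and the 3 genes summed to 0.165 to 38.1 FPKM in dormant and 0.075 to 76 FPKM in DMSO libraries. Of 3 leukocyte markers CD3E was at 0 throughout and PTPRC under 1 FPKM, with sums of 0.14 to 20.7 FPKM in dormant and 5.17 to 29 FPKM in DMSO libraries, nearly all of it CD68 except in the second HCC4006 dormant library, where CD68 was at 0. Of 3 endothelial markers CDH5 and KDR were under 1 FPKM, and the sums were 0.035 to 3.05 FPKM in dormant and 0.005 to 0.185 FPKM in DMSO libraries. The 4 fibroblast markers summed to 0.485 to 376 FPKM in dormant and 0.64 to 1.73 FPKM in DMSO libraries, with DCN under 1 FPKM throughout and COL1A2 at 368 and 249.6 FPKM in dormant HCC4006, against 0.77 and 1.04 FPKM in DMSO HCC4006. The part of these markers in the results was not tested.

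Mitosis genes were lower in dormant cells, with 34 of the 35 genes called lower in the mean over the 3 lines and none called higher. Of all genes tested in that mean, 4.55% were called lower and 10.9% higher. Values are FPKM, fragments per kilobase of transcript scaled to library size, and each difference is dormant minus DMSO in log2(FPKM + 1), a scale that compresses the change of weakly expressed genes. They are given with the SE of limma's fit, and a gene was called at a Benjamini-Hochberg adjusted p under 0.05 over all genes tested. The median difference of the 35 genes was -2.3, with a range of -4.28 to -0.77, beside a median of 0.22 over all genes tested. CENPE was the gene that was not called. Of the 34 calls, 30 held whichever of the 12 libraries was left out, and those of TOP2A, KIF11, HMMR and TTK were lost in at least 1 case. All 35 genes were called lower without both libraries that stand apart, beside 13.3% of 13910 genes tested. Under median of ratios scaling and quantile normalization, which bring the median of all genes to 0.03, 34 and 35 of the genes were called lower, while the calls over all genes moved to 1208 higher and 1241 lower and to 1265 higher and 1316 lower, against 1599 higher and 669 lower. In bulk samples, fewer cells in mitosis and less of each RNA per cell cannot be told apart.

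**Figure D1:**
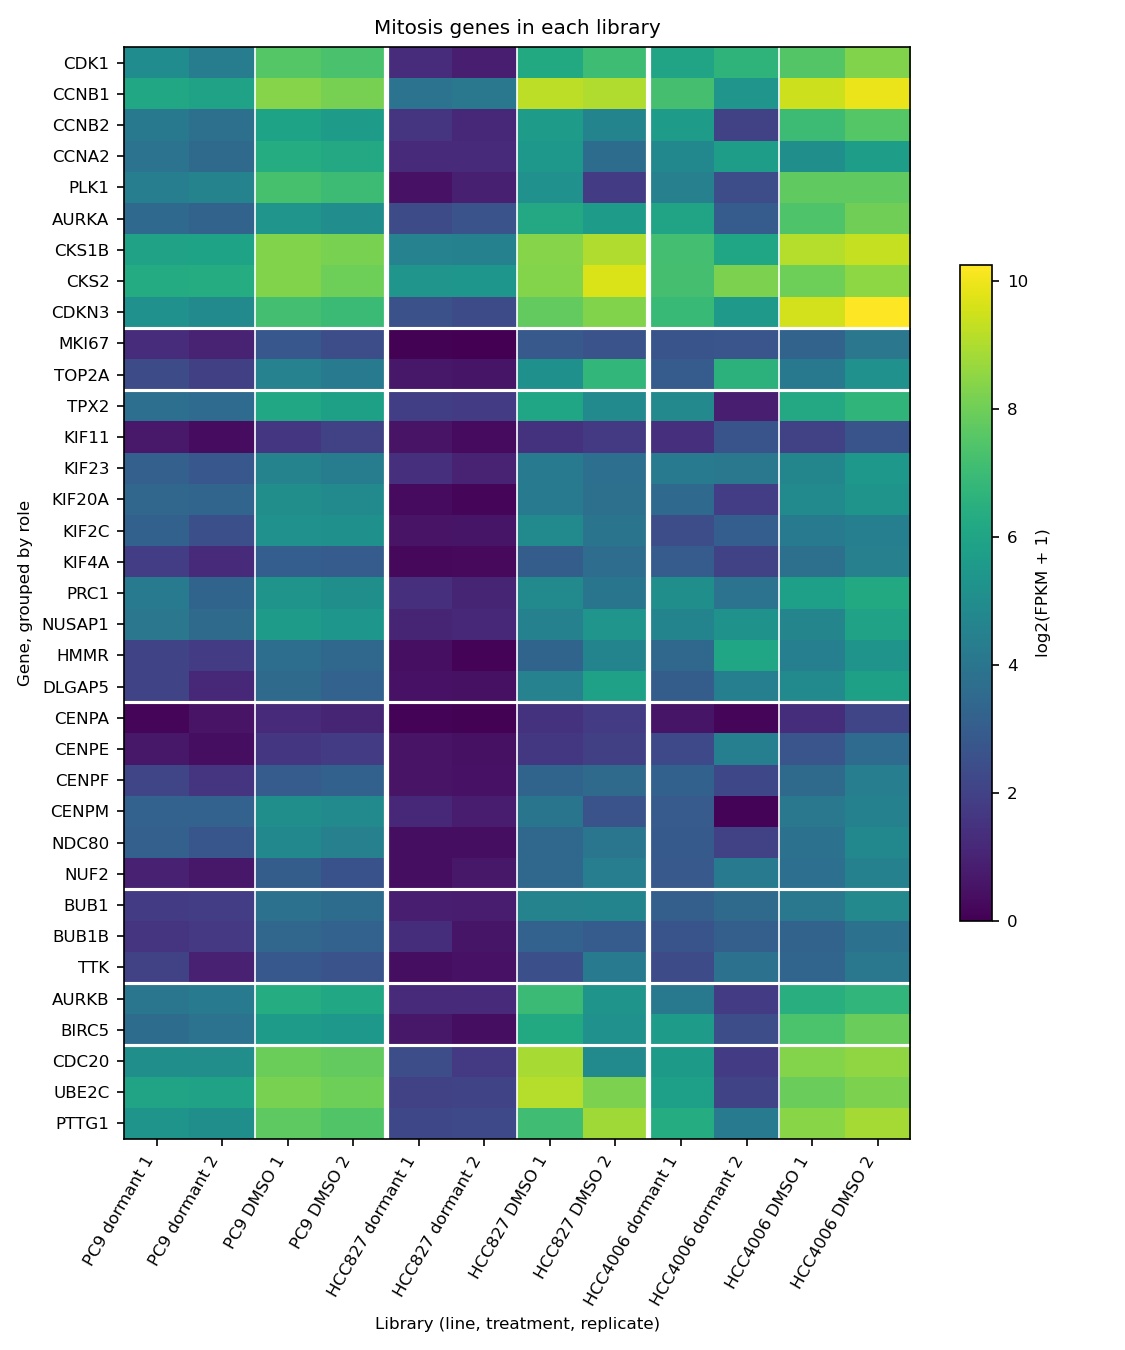
Level of each of the 35 mitosis genes (rows, grouped by role and divided by white lines) in each of the 12 libraries (columns), as log2(FPKM + 1) by colour. Dormant columns are darker than the DMSO columns to their right in PC9 and HCC827 for every gene, and the second HCC4006 dormant library departs from the first in both directions, as for TOP2A (94.1 FPKM in the second, 6.79 FPKM in the first) and CENPM (0.07 FPKM in the second, 6.66 FPKM in the first).

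Entry kinases, cyclins and their partners fell in the mean, all 9 of them, with a median difference of -3.04. CDKN3, a phosphatase that acts on CDK1 and CDK2, had the most negative difference of the 9. It had 34.8 and 28.9 FPKM in dormant PC9, against 145 and 126 FPKM in DMSO PC9. It had 4.8 and 4.27 FPKM in dormant HCC827, against 221 and 317 FPKM in DMSO HCC827. It had 122 and 45.9 FPKM in dormant HCC4006, against 742 and 1206 FPKM in DMSO HCC4006. Dormant and DMSO libraries of CDKN3 did not overlap in any line, and its mean difference was -3.76 ± 0.32 (limma adjusted p = 0.000206). CKS2, a small subunit that docks CDK1 to its substrates, had the least negative difference. It had 78.4 and 79.3 FPKM in dormant PC9, against 314 and 253 FPKM in DMSO PC9, and 39.3 and 40.1 FPKM in dormant HCC827, against 319 and 803 FPKM in DMSO HCC827. It had 149 and 294 FPKM in dormant HCC4006, against 248 and 365 FPKM in DMSO HCC4006, so that the groups overlapped in that line alone. The mean difference of CKS2 was -1.99 ± 0.33 (limma adjusted p = 0.00406).

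The other 7 entry genes lay between these. CCNB1, the B-type cyclin of mitotic entry, fell by 3.6 ± 0.35 and its partner kinase CDK1 by 3.3 ± 0.31 (limma adjusted p = 0.000332 and 0.000267). PLK1, the polo kinase that helps to switch on CDK1 and to mature the centrosomes, fell by 3.24 ± 0.57, and CKS1B, the close relative of CKS2, by 3.04 ± 0.29. CCNB2, the second B-type cyclin, fell by 3.02 ± 0.55, and AURKA, the centrosomal Aurora kinase, fell by 2.82 ± 0.47. CCNA2, the A-type cyclin of S phase and entry, fell by 2.0 ± 0.36, on the same log2 scale. CDK1 stood at 1.1% of its DMSO level in HCC827, and at 14.7% in PC9 and 32.7% in HCC4006. CCNA2 was the member of this group with the least change in HCC4006, with 26.4 and 53.1 FPKM in dormant libraries, against 33.4 and 52.4 FPKM in DMSO libraries, and the groups overlapped.

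Both genes of chromosome structure were called lower in the mean. TOP2A, the topoisomerase that untangles sister chromatids, had 4.21 and 2.86 FPKM in dormant PC9, against 21.9 and 17.6 FPKM in DMSO PC9. It had 0.6 and 0.5 FPKM in dormant HCC827, against 34.7 and 107 FPKM in DMSO HCC827. It had 6.79 and 94.1 FPKM in dormant HCC4006, against 16.7 and 35.6 FPKM in DMSO HCC4006. Its first HCC4006 dormant library was below both DMSO libraries and its second above both. The mean difference of TOP2A was -2.48 ± 0.58 (limma adjusted p = 0.0189), and -2.81 ± 0.23 (limma adjusted p = 8.65e-06) without both libraries that stand apart. MKI67, which encodes the Ki-67 antigen that coats mitotic chromosomes, had 1.47 and 0.99 FPKM in dormant PC9, against 5.92 and 4.37 FPKM in DMSO PC9. It had 0.03 and 0.02 FPKM in dormant HCC827, against 6.17 and 5.12 FPKM in DMSO HCC827, the lowest share of a DMSO level among the 35 genes in any line by the mean of both dormant libraries. It had 5.32 and 5.54 FPKM in dormant HCC4006, against 8.56 and 15.6 FPKM in DMSO HCC4006. Dormant and DMSO libraries of MKI67 did not overlap in any line, and its mean difference was -1.71 ± 0.23 (limma adjusted p = 0.00139).

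All 10 spindle motors and microtubule proteins were called lower in the mean, with a median difference of -2.06. TPX2, which activates AURKA on the spindle, had the most negative difference of the 10. It had 12.5 and 10.8 FPKM in dormant PC9, against 68.5 and 56.2 FPKM in DMSO PC9, and 2.72 and 2.43 FPKM in dormant HCC827, against 63.0 and 28.0 FPKM in DMSO HCC827. It had 27.4 and 0.84 FPKM in dormant HCC4006, against 71.8 and 103 FPKM in DMSO HCC4006. The groups did not overlap in any line, though the second HCC4006 dormant library was far below the first, and the mean difference of TPX2 was -3.17 ± 0.58 (limma adjusted p = 0.00658). KIF11, the motor that pushes spindle poles apart, had the least negative difference of the 10. It had 0.64 and 0.28 FPKM in dormant PC9, against 2.06 and 3.05 FPKM in DMSO PC9, and 0.44 and 0.23 FPKM in dormant HCC827, against 1.8 and 2.36 FPKM in DMSO HCC827. It had 1.62 and 5.37 FPKM in dormant HCC4006, against 3.0 and 5.34 FPKM in DMSO HCC4006. The second of these dormant libraries was level with the higher DMSO library, and the mean difference of KIF11 was -0.93 ± 0.26 (limma adjusted p = 0.0404). KIF11 is weakly expressed, and the log2(FPKM + 1) scale compresses its change. In PC9 it kept 18% of its DMSO level and TPX2 18.7%. In HCC827 KIF11 kept 16% and TPX2 5.66%, and in HCC4006 they kept 83.8% and 16.2%.

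Of the other 8, the motors of the spindle midzone and cytokinesis were KIF20A, which fell by 2.6 ± 0.31 in the mean, KIF4A, which fell by 2.06 ± 0.28, and KIF23, which fell by 1.75 ± 0.26. PRC1, which bundles the microtubules of the midzone, fell by 2.05 ± 0.32. KIF2C, a kinesin that takes microtubule ends apart at the centromere, fell by 2.59 ± 0.27. DLGAP5 (HURP), which stabilises microtubules near chromosomes, fell by 2.71 ± 0.37, NUSAP1, which bundles microtubules around chromosomes, by 1.96 ± 0.31, and HMMR, a spindle pole protein, by 1.81 ± 0.46. The largest adjusted p among these 8 was that of HMMR, at 0.0265 by limma, and HMMR had 9.88 and 66.5 FPKM in dormant HCC4006, against 20.1 and 38.1 FPKM in DMSO HCC4006.

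Of the 6 centromere and kinetochore genes, 5 were called lower in the mean, and the median difference of the 6 was -1.9. CENPM, a subunit of the inner centromere network, had 8.39 and 8.36 FPKM in dormant PC9, against 33.4 and 28.97 FPKM in DMSO PC9. It had 1.22 and 0.7 FPKM in dormant HCC827, against 14.8 and 5.16 FPKM in DMSO HCC827, and 6.66 and 0.07 FPKM in dormant HCC4006, against 16.1 and 21.5 FPKM in DMSO HCC4006. The groups did not overlap in any line, and the mean difference of CENPM was -2.3 ± 0.46 (limma adjusted p = 0.0102). CENPE, the kinetochore motor that carries chromosomes to the spindle equator, had 0.56 and 0.3 FPKM in dormant PC9, against 2.04 and 2.52 FPKM in DMSO PC9. It had 0.44 and 0.38 FPKM in dormant HCC827, against 2.17 and 2.8 FPKM in DMSO HCC827, and 3.8 and 20.4 FPKM in dormant HCC4006, against 5.49 and 11.1 FPKM in DMSO HCC4006. Dormant libraries were below DMSO libraries in PC9 and HCC827, while in HCC4006 the first was below and the second above both DMSO libraries. The mean difference of CENPE was -0.77 ± 0.36 (limma adjusted p = 0.169), and -1.09 ± 0.2 (limma adjusted p = 0.00174) without both libraries that stand apart. NDC80 and NUF2, partners in the complex that grips microtubules, fell by 2.29 ± 0.29 and 2.0 ± 0.32 in the mean. CENPF, a kinetochore protein of the second gap phase and mitosis, fell by 1.8 ± 0.27, and CENPA, the histone H3 variant of centromeres, by 1.23 ± 0.18. CENPA stood at 0.04 to 0.48 FPKM in the 6 dormant libraries, against 1.09 to 3.36 FPKM in the 6 DMSO libraries.

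All 3 genes of the spindle checkpoint group were called lower in the mean, with a median difference of -1.58. BUB1, which recruits checkpoint proteins to the kinetochore, had 2.47 and 2.6 FPKM in dormant PC9, against 13.7 and 11.3 FPKM in DMSO PC9. It had 0.84 and 0.72 FPKM in dormant HCC827, against 23.1 and 23.3 FPKM in DMSO HCC827, and 7.66 and 10.6 FPKM in dormant HCC4006, against 16.2 and 27.0 FPKM in DMSO HCC4006. Dormant and DMSO libraries were apart in each line, and the mean difference of BUB1 was -2.27 ± 0.23 (limma adjusted p = 0.000429). BUB1B (BUBR1), part of the complex that blocks CDC20, had 2.01 and 2.24 FPKM in dormant PC9, against 9.42 and 8.25 FPKM in DMSO PC9. It had 1.52 and 0.5 FPKM in dormant HCC827, against 8.37 and 6.98 FPKM in DMSO HCC827, and 5.34 and 7.64 FPKM in dormant HCC4006, against 8.67 and 13.2 FPKM in DMSO HCC4006. The same held for BUB1B in each line, and the mean difference of BUB1B was -1.49 ± 0.24 (limma adjusted p = 0.00368). TTK (MPS1), the kinase at the head of the checkpoint, fell by 1.58 ± 0.39 in the mean (limma adjusted p = 0.0249).

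Both chromosomal passengers fell in the mean. AURKB, the Aurora kinase that corrects faulty attachments, had 15.1 and 17.4 FPKM in dormant PC9, against 79.2 and 67.7 FPKM in DMSO PC9. It had 1.38 and 1.37 FPKM in dormant HCC827, against 124 and 38.9 FPKM in DMSO HCC827, and 16.6 and 2.52 FPKM in dormant HCC4006, against 88.0 and 104 FPKM in DMSO HCC4006. No dormant library reached a DMSO library of its line, and the mean difference of AURKB was -3.54 ± 0.43 (limma adjusted p = 0.000966). BIRC5 (survivin), which brings AURKB to the centromere and is also studied as an inhibitor of cell death, had 11.2 and 14.1 FPKM in dormant PC9, against 49.9 and 43.0 FPKM in DMSO PC9. It had 0.56 and 0.3 FPKM in dormant HCC827, against 73.6 and 35.01 FPKM in DMSO HCC827, and 48.8 and 4.38 FPKM in dormant HCC4006, against 161 and 238 FPKM in DMSO HCC4006. Again no dormant library reached a DMSO library of its line, and the mean difference of BIRC5 was -3.52 ± 0.5 (limma adjusted p = 0.00197).

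The 3 genes of anaphase and exit fell in the mean, and their median difference of -4.1 was the most negative of the 7 role groups. That order holds on the log2(FPKM + 1) scale, which compresses the change of groups with weakly expressed genes. UBE2C, the enzyme that hands ubiquitin to the anaphase promoting complex, had 62.9 and 58.4 FPKM in dormant PC9, against 287 and 252 FPKM in DMSO PC9. It had 2.98 and 3.34 FPKM in dormant HCC827, against 544 and 294 FPKM in DMSO HCC827, and 54.0 and 3.26 FPKM in dormant HCC4006, against 237 and 297 FPKM in DMSO HCC4006. The groups did not overlap in any line, and the mean difference of UBE2C was -4.28 ± 0.55 (limma adjusted p = 0.00118), the most negative of the 35 in the mean. PTTG1 (securin), which holds separase inactive until anaphase, had 38.6 and 33.4 FPKM in dormant PC9, against 205 and 177 FPKM in DMSO PC9. It had 3.6 and 3.8 FPKM in dormant HCC827, against 135 and 437 FPKM in DMSO HCC827, and 80.9 and 17.2 FPKM in dormant HCC4006, against 344 and 464 FPKM in DMSO HCC4006. For PTTG1 too the groups were apart in each line, and its mean difference was -3.82 ± 0.43 (limma adjusted p = 0.000691). CDC20, the activator of the anaphase promoting complex, fell by 4.1 ± 0.76 in the mean (limma adjusted p = 0.00668). Its DMSO libraries in HCC827 differed widely from each other: it had 4.34 and 2.35 FPKM in dormant HCC827, against 471 and 27.9 FPKM in DMSO HCC827, and without both libraries that stand apart the mean difference of CDC20 was -4.14 ± 0.17.

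By line, the share of the DMSO level left was lowest in HCC827, though with all libraries limma's F test of equal differences called 0 of the 35 genes (16 at an unadjusted p under 0.05). On the scale of percent of the DMSO mean of the same line, with no pseudocount, the median gene of the 35 stood at 23.5% in dormant PC9, 2.87% in dormant HCC827 and 30.3% in dormant HCC4006, beside 109%, 125% and 129% for the median of 13782 tested genes with a DMSO level in every line. The range over genes was 12.1% (NUF2) to 36.7% (PRC1) in PC9, 0.399% (MKI67) to 16.4% (CENPE) in HCC827, and 6.04% (PLK1) to 193% (TOP2A) in HCC4006. In HCC827, 32 of the 35 genes stood under 10% of their DMSO level, beside 1.86% of those tested genes, as did 0 in PC9 and 4 in HCC4006, beside 1.42% of tested genes in each. The share was lowest in HCC827 for all 35 genes, beside 28.1% of tested genes, and for 34 when both libraries that stand apart were left out, beside 35.9%. Both HCC827 dormant libraries were below both PC9 dormant libraries on this scale for 33 genes, beside 28.0% of tested genes. Both PC9 dormant libraries were below the first HCC4006 dormant library for 22 of the 35, not far from the 51.8% of tested genes.

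**Figure D2:**
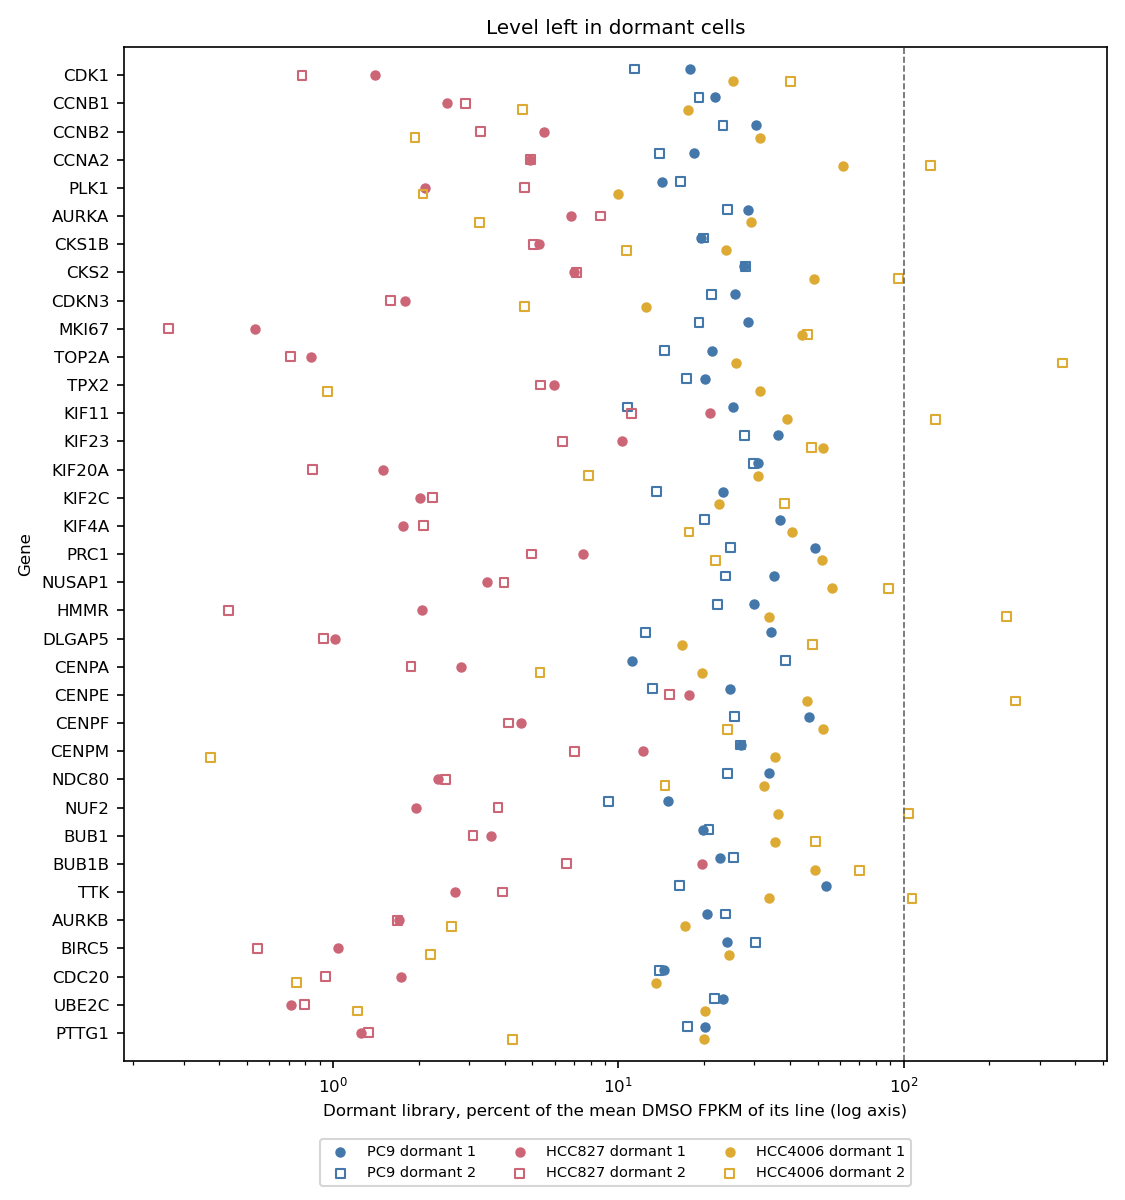
Level of each of the 35 mitosis genes in each dormant library as percent of the mean DMSO FPKM of its line, on a log axis, with circles for the first and open squares for the second dormant library and a dashed line at 100%. HCC827 points lie lowest, with a median gene of 2.87%, PC9 points keep together around 23.5%, and the second HCC4006 dormant library spreads from 0.373% to 360%.

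In PC9, both dormant libraries were below both DMSO libraries for all 35 genes, as they were for 27.0% of all genes tested. limma called CDK1, CKS1B, KIF2C and BUB1 lower, 4 of the 35, beside 0.891% of all genes. The median difference of the 35 was -1.81 in PC9, beside 0.05 over all genes. The count of 4 rested on the spread that all lines share, and it was 29 without either HCC4006 dormant library, 0 without any 1 PC9 library or either HCC827 dormant library (13 to 23 at an unadjusted p under 0.05), and 1 without either HCC4006 DMSO library. With both libraries that stand apart left out, 34 genes were called lower in PC9, all but CENPA, beside 9.39% of all genes.

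In HCC827, both dormant libraries were again below both DMSO libraries for all 35 genes, as for 19.4% of all genes tested. limma called 28 of the 35 lower, beside 1.44% of all genes, and the median difference of the 35 was -3.64, beside 0.22 over all genes. The genes not called were CCNB2, PLK1, TPX2, KIF11, CENPE, CENPM and CDC20. PLK1 had 0.4 and 0.89 FPKM in dormant HCC827, against 35.5 and 2.43 FPKM in DMSO HCC827. Fitted alone, with the spread of its own 4 libraries, HCC827 gave 0 calls among the 35 by limma (34 lower at an unadjusted p under 0.05). The count fell to 3 and to 4 without the first and without the second HCC827 dormant library. In HCC827, 33 genes were called lower without both libraries that stand apart, all but KIF11 and CENPE, beside 6.90% of all genes.

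In HCC4006, both dormant libraries were below both DMSO libraries for 26 of the 35 genes, as for 15.8% of all genes tested. limma called 11 of the 35 lower, beside 1.18% of all genes, and the median difference of the 35 was -1.6, beside 0.15 over all genes. The 11 genes were CCNB1, PLK1, AURKA, CKS1B, CDKN3, KIF20A, CENPA, AURKB, BIRC5, UBE2C and PTTG1. The count rose without the first HCC4006 dormant library, as did the number of all genes called lower in HCC4006. The count of 11 was unchanged without the second, the one that stands apart, and fell when any other library was left out. It fell furthest without either HCC4006 DMSO library. Each of these fits keeps 1 library in a group. In HCC4006, 24 genes were called lower without both libraries that stand apart, beside 3.92% of all genes. In that line and by the mean of both dormant libraries, TOP2A (193%), CENPE (146%) and HMMR (131%) stood above their DMSO level. No gene did so in the first dormant library, where the 35 reached at most 61.5% of the DMSO level, and 7 did so in the second. TOP2A differed by 0.1 in HCC4006 with all libraries and by -0.27 and -0.23 under median of ratios scaling and quantile normalization, and CENPE by 0.19, against -0.14 and -0.28.

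Replicate differences in several groups varied with the GC content of the transcripts, over the widest range in HCC4006 dormant and HCC827 DMSO. GC content, taken from the longest coding transcript of each gene, ran from 35.3% (CENPE) to 61.4% (CENPM) over the 35 genes, with a median of 43.9%. The difference between the second and the first HCC4006 dormant library ran from -3.95 to 3.61 on the log2(FPKM + 1) scale. It had a median of 0.97 in the 17 genes below the median GC content and of -2.17 in the 17 above it. The Pearson r of that replicate difference with GC content was -0.719 across the 35 genes, and -0.425 across 11211 tested genes with a GC value. In HCC827 DMSO it was -0.714 across the 35 genes, with medians of 0.63 and -0.90 below and above the median GC content. In HCC4006 DMSO it was -0.757, over a narrow range of up to 1.21, and 34 of the 35 genes were higher in the second library than in the first. It was 0.478 in PC9 dormant, -0.0351 in HCC827 dormant and -0.137 in PC9 DMSO. Across the 11211 genes the r was 0.572 in PC9 dormant, the largest in size of the 6 and opposite in sign to HCC4006 dormant, -0.0616 in HCC827 dormant, 0.182 in PC9 DMSO, -0.468 in HCC827 DMSO and -0.437 in HCC4006 DMSO. The genes of each such r share a library pair, so these values describe the libraries and carry no p. The dormant minus DMSO difference in HCC4006 had an r of -0.712 with GC content across the 35 genes, and of -0.458 without both libraries that stand apart. In HCC827 leaving both out moved it the other way, to -0.453, from -0.132 with all libraries, and in PC9 it was -0.298 in both fits. In the mean over lines that r was -0.497 and, without both libraries, -0.465. The part of GC content in the differences was not tested.

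**Figure D3:**
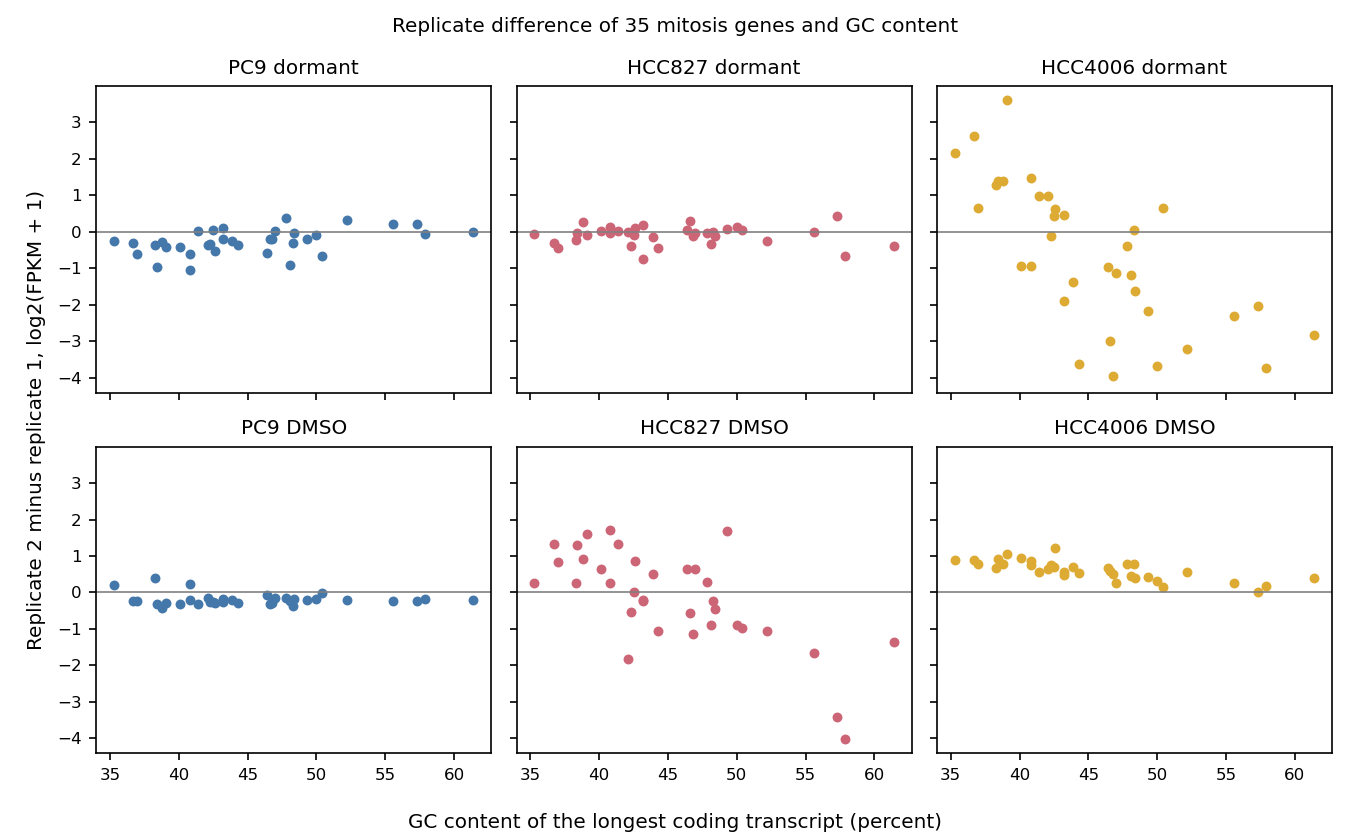
Second minus first replicate on the log2(FPKM + 1) scale (vertical) against GC content of the longest coding transcript in percent (horizontal) for the 35 mitosis genes, with dormant pairs in the upper row and DMSO pairs in the lower row. HCC4006 dormant and HCC827 DMSO slope downward, with r of -0.719 and -0.714. HCC4006 DMSO lies between 0 and 1.21 with r of -0.757, PC9 dormant between -1.05 and 0.37 with r of 0.478, and HCC827 dormant and PC9 DMSO between -0.74 and 0.43.

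The size of the fall was compared between lines with limma's F test of whether the dormant minus DMSO difference is equal in all 3 lines. With all libraries it called 0 of the 35 genes, of which 16 had an unadjusted p under 0.05 and the lowest adjusted p was 0.0629 (CDK1), beside 1.48% of all genes called. When both libraries that stand apart were left out it called 21 of the 35, beside 8.77% of all genes. These were all 9 entry genes, both chromosomal passengers, all 3 exit genes, TOP2A, BUB1 and 5 of the 10 spindle genes, namely TPX2, KIF23, KIF20A, KIF2C and PRC1, and none of the 6 centromere and kinetochore genes. The lowest adjusted p in that fit was that of UBE2C (limma F test adjusted p = 7.44e-05), with differences of -2.13 ± 0.21 in PC9, -7.03 ± 0.26 in HCC827 and -2.28 ± 0.26 in HCC4006. CDC20 followed (limma F test adjusted p = 0.0004), with -2.78 ± 0.25 in PC9, -6.8 ± 0.3 in HCC827 and -2.85 ± 0.3 in HCC4006, and AURKB (limma F test adjusted p = 0.000467), with -2.11 ± 0.22 in PC9, -5.71 ± 0.27 in HCC827 and -2.46 ± 0.27 in HCC4006. CENPE differed by -1.2 ± 0.3 in PC9, -1.17 ± 0.37 in HCC827 and -0.89 ± 0.37 in HCC4006 there, and was not called different between lines (limma F test adjusted p = 0.875). With 1 library left out, the number of the 35 genes called rose without either HCC4006 dormant library, as did the number called over all genes. It did not move in the other 10 cases. Every fit with 1 library left out keeps 1 library in a group, so this does not set the cases with a rise apart. The cause of the rise was not tested, and it is not read as a result about the mitosis genes. In HCC827 and HCC4006 the fit without both libraries has 1 library in a group, which is taken to vary like the other groups. The calls of that fit are read with this limit. By role they also depend on the log2(FPKM + 1) scale, which compresses the change of weakly expressed genes. In percent of the DMSO level without both libraries, NDC80 stood at 29% in PC9, 3.13% in HCC827 and 32.4% in HCC4006. CENPA stood at 24.8%, 2.75% and 19.6% in that order, and CENPE at 18.9%, 18.8% and 45.7%. A gene not called there is not shown to have fallen equally.

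Other genes of cell division were read from 8 lists, which were chosen with earlier results of these data known. In the mean over lines, the share called lower was 12 of 20 other spindle and cytokinesis genes, 10 of 16 inner centromere genes, 8 of 18 other outer kinetochore and checkpoint genes, 5 of 10 CDK1 switch regulators and 3 of 8 condensin genes, beside 4.55% of all genes tested. Their median differences were -1.13, -1.38, -0.93, -1.16 and -1.24 in the same order, beside 0.22 over all genes, and none of their genes was called higher. Without both libraries that stand apart the counts were 17 of 19 (with NUMA1, a spindle pole protein, called higher at 1.07 ± 0.16), 13 of 16, 13 of 18, 7 of 10 and 8 of 8, beside 13.3% of all genes.

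Among the spindle genes, CDCA8 (borealin), a partner of AURKB and BIRC5, fell by 2.35 ± 0.35 in the mean, CKAP2L, a spindle protein, by 2.08, ANLN (anillin), a scaffold of the cleavage furrow, by 1.68, and RACGAP1, the partner of KIF23 at the midzone, by 1.68. Among inner centromere genes, CENPN fell by 2.39 ± 0.28, HJURP, the chaperone that deposits CENPA, by 2.3, CENPU by 2.3, and CENPW fell by 2.14. Of the outer kinetochore and checkpoint genes, ZWINT fell by 2.7 ± 0.26, the checkpoint protein MAD2L1 by 2.37, and SPC24 and SPC25, partners of NDC80 and NUF2, by 2.35 and 2.06. Of the CDK1 switch regulators, CDC25C, a phosphatase that activates CDK1, fell by 2.02 ± 0.32, CCNF by 1.84, BORA, which helps AURKA to activate PLK1, by 1.76, and GTSE1 by 1.54. The condensin subunits NCAPH, NCAPG and NCAPD2 fell by 2.42 ± 0.29, 2.31 and 1.49. All of these differences are means over lines on the log2(FPKM + 1) scale with a limma adjusted p under 0.05. In the 8 lists, 45 genes were called lower in the mean, a choice made on these same libraries that largely fixes what follows. All 45 had both dormant libraries below both DMSO libraries in PC9 and in HCC827, and 36 did in HCC4006. Of all genes tested, 27.0% did in PC9, 19.4% in HCC827 and 15.8% in HCC4006. The 9 that overlapped in HCC4006 were ANLN, CENPK, CENPW, FBXO5, KIF20B, MAD2L1, MIS18A, SGO1 and SGO2. ANLN had 18.3 and 117 FPKM in dormant HCC4006, against 27.3 and 48.8 FPKM in DMSO HCC4006, a difference of 0.35 there and of -0.96 without both libraries that stand apart.

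The lists of cohesin and of the anaphase promoting complex hold machinery that cells also use outside mitosis. Of 12 cohesin and separase genes 4 were called lower in the mean, beside 4.55% of all genes, with a list median of -0.15. They were CDCA5 (sororin), which fell by 2.31 ± 0.51, the cohesin protectors SGO1, by 1.56, and SGO2, by 1.08, and the protease ESPL1 (separase), by 0.90. The ring subunits SMC1A, SMC3 and RAD21 were not called in the mean, with differences of -0.22, -0.47 and -0.05. The mean of RAD21 averages opposite differences. RAD21 had 5.22 and 3.68 FPKM in dormant PC9, against 8.02 and 6.04 FPKM in DMSO PC9. It had 3.35 and 2.3 FPKM in dormant HCC827, against 5.15 and 10.3 FPKM in DMSO HCC827. In HCC4006 it had 12.9 and 114 FPKM in dormant libraries, against 9.48 and 16.8 FPKM in DMSO libraries. In PC9 all 12 genes of the list had a negative difference, with a median of -0.78, and limma called 0 lower with all libraries (4 at an unadjusted p under 0.05) and 6 without both libraries that stand apart, beside 9.39% of all genes. SMC1A had 4.1 and 4.38 FPKM in dormant PC9, against 11.4 and 12.5 FPKM in DMSO PC9, a difference of -1.30 ± 0.41 (limma adjusted p = 0.168) and, without both libraries, of -1.30 ± 0.24 (limma adjusted p = 0.00336). Of 16 tested anaphase promoting complex genes 1 was called lower in the mean, near the 4.55% of all genes, with a list median of -0.27. It was FBXO5 (EMI1), an inhibitor of the complex rather than a subunit, which fell by 1.05 ± 0.26. FBXO5 had 7.77 and 17.5 FPKM in dormant HCC4006, against 7.64 and 13.1 FPKM in DMSO HCC4006, so its groups overlapped there. In the mean without both libraries, 4 cohesin and separase genes and 5 genes of the complex were called lower, beside 13.3% of all genes, and 1 gene of the complex, ANAPC13, was called higher, beside 30.5%. The difference between these lists was not tested.

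Of 12 tested transcription factors and MuvB subunits that control mitosis genes, 2 were called lower and 1 higher in the mean, beside 4.55% and 10.9% of all genes, with a list median of -0.18. FOXM1, the forkhead activator of late cell cycle genes, had 3.8 and 4.61 FPKM in dormant PC9, against 11.8 and 10.5 FPKM in DMSO PC9. It had 0.46 and 0.36 FPKM in dormant HCC827, against 9.49 and 10.6 FPKM in DMSO HCC827, and 5.51 and 0.06 FPKM in dormant HCC4006, against 10.3 and 12.6 FPKM in DMSO HCC4006. No line had overlapping groups, and FOXM1 fell by 2.15 ± 0.40 in the mean (limma adjusted p = 0.00671). MYBL2 (B-MYB), which binds the MuvB core in cycling cells, had 2.45 and 3.04 FPKM in dormant PC9, against 5.35 and 5.1 FPKM in DMSO PC9. It had 0.23 and 0.02 FPKM in dormant HCC827, against 8.56 and 3.44 FPKM in DMSO HCC827, and 2.64 and 0.08 FPKM in dormant HCC4006, against 8.2 and 9.46 FPKM in DMSO HCC4006. MYBL2 fell by 1.86 ± 0.33 in the mean (limma adjusted p = 0.00565), with no overlap in any line. RBL2 (p130), the pocket protein of the repressor in resting cells, went the other way, with 2.62 and 2.22 FPKM in dormant PC9, against 1.12 and 0.94 FPKM in DMSO PC9. It had 4.22 and 2.98 FPKM in dormant HCC827, against 0.67 and 0.98 FPKM in DMSO HCC827, and 4.18 and 3.75 FPKM in dormant HCC4006, against 1.14 and 2.04 FPKM in DMSO HCC4006. RBL2 rose by 1.01 ± 0.19 in the mean (limma adjusted p = 0.00798), and every dormant library was above both DMSO libraries of its line. The MuvB subunits LIN9 (-0.16), LIN37 (0.33), LIN52 (0.13), LIN54 (0.37) and RBBP4 (0.11) were not called in the mean. The means of LIN9 and RBBP4 average opposite differences. LIN9 had 0.85 and 0.22 FPKM in dormant PC9, against 2.01 and 1.78 FPKM in DMSO PC9. It had 0.96 and 1.57 FPKM in dormant HCC827, against 1.85 and 3.82 FPKM in DMSO HCC827. In HCC4006 it had 2.98 and 15.2 FPKM in dormant libraries, against 1.82 and 3.49 FPKM in DMSO libraries. LIN54 had 1.06 and 9.18 FPKM in dormant HCC4006, against 0.54 and 1.27 FPKM in DMSO HCC4006. RBBP4 had 25.8 and 16.7 FPKM in dormant PC9, against 55.5 and 48.6 FPKM in DMSO PC9. It had 44.4 and 37.5 FPKM in dormant HCC827, against 26.0 and 16.9 FPKM in DMSO HCC827, and 49.2 and 53.5 FPKM in dormant HCC4006, against 25.2 and 38.8 FPKM in DMSO HCC4006. Its groups were apart in each line, lower in dormant PC9 and higher in dormant HCC827 and HCC4006, and the F test of equal differences gave a limma adjusted p of 0.244, and of 0.0252 without both libraries that stand apart. In that fit 4 of 11 genes of the list were called lower in the mean, beside 13.3% of all genes, and RBL2 was called higher (1.07 ± 0.17, limma adjusted p = 0.00078), beside 30.5%. These are RNA levels, and the binding or activity of these proteins was not measured.

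**Figure D4:**
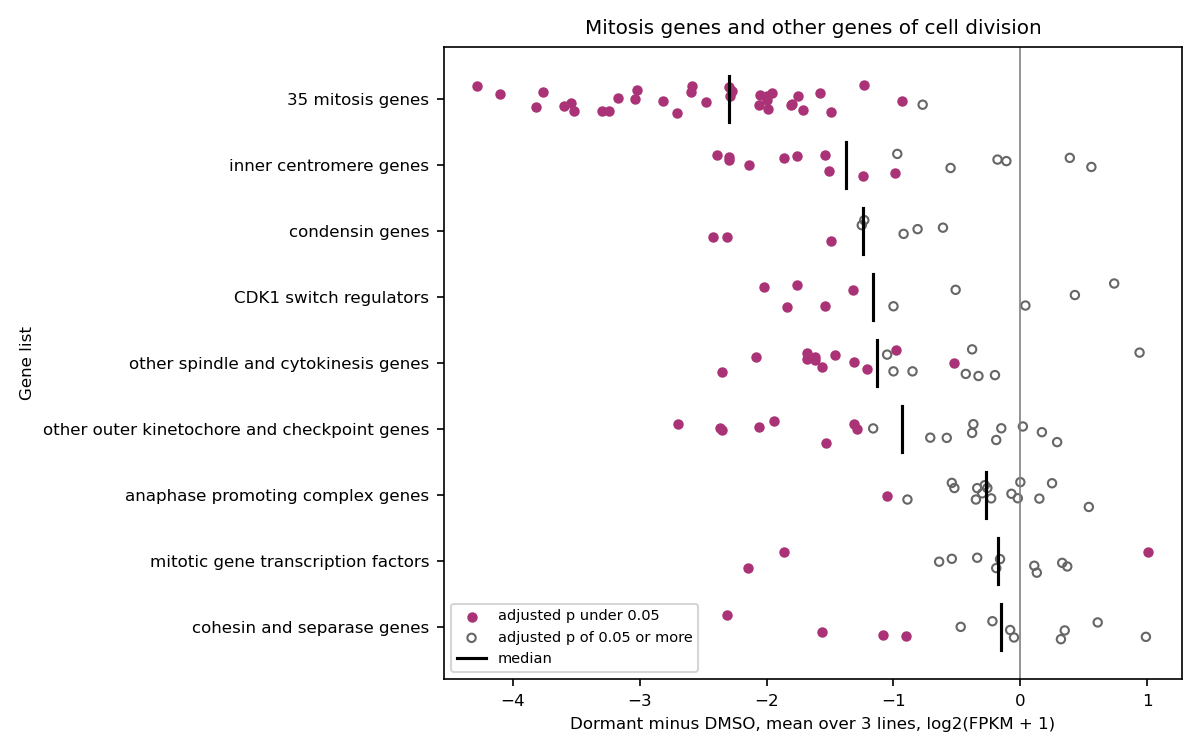
Dormant minus DMSO difference in the mean over 3 lines on the log2(FPKM + 1) scale (horizontal) for each tested gene of the 35 mitosis genes and of 8 other lists (rows), with filled points for genes called by limma, open points for those not called and a black bar at the median. The 35 genes have a median of -2.3, the lists of centromere, condensin, CDK1 switch, spindle and outer kinetochore genes have medians of -1.38 to -0.93, and the medians of the 3 lowest rows lie at -0.27 to -0.15.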

How the data were processed

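Stranded mRNA libraries from 3 cell lines were sequenced in bulk, with 2 libraries in each of 6 groups. The authors deposited FPKM for 57905 genes, in 24 columns, 2 for each library, and what each column of a pair holds is not stated. Both were averaged and counted as 1 library. Per the submitters' processing notes, the tools were DESeq2 1.10.1, Cufflinks 2.2.1 and STAR 2.5.1b, and both GRCh37 and hg19 are named as builds, with no role or order. Absolute read depth is unknown, so no counting interval is given, and FPKM of a library summed to 793883 to 1159352.

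Values were analysed as log2(FPKM + 1), with a pseudocount of 1, for genes that reached 1 FPKM in 2 or more libraries. limma 3.58.1 in R 4.3.3 was fitted to all 12 libraries with 1 coefficient per group and eBayes with a trend (6 residual and 3.84 prior degrees of freedom). Contrasts were dormant minus DMSO in each line, their mean with equal weight, and an F test of their equality. Tests were two-sided, with Benjamini-Hochberg adjustment over 14699 genes and a threshold of 0.05. All 6 groups share 1 estimate of a gene's spread, and the SE of a line therefore draws on the other lines too. Python 3.11.15, pandas 2.3.3, numpy 2.4.6 and matplotlib 3.10.9 made the tables and figures.

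The 35 genes, the lists and the tests were chosen with earlier results of these data known. Values in every library are given for the genes with the most and the least negative mean difference in each role, for those not called, for FOXM1, MYBL2 and RBL2, and for a few others picked after their values were seen. From each other list at most 4 called genes with the largest differences are named. GC content came from GENCODE 29 transcripts. Promoter sequences came from RefSeq (GRCh38.p14) and were joined to the FPKM values by symbol only, since the builds differ. Alternatives were other pseudocounts, filters and scalings, single columns of a pair, each line alone, a replicate block and each library left out.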

Additional observations from a re-analysis of the deposited data

Results flagged for a closer look

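Without both libraries that stand apart, 21 of the 35 mitosis genes differed between lines in how far they fell, by limma's F test of equal differences, while with all libraries none did. With and without those libraries, the share of the DMSO level left was lowest in HCC827 for at least 34 of the 35 genes. Of tested genes, 28.1% were lowest in HCC827 with all libraries and 35.9% without both.

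COL1A2, a collagen gene among the fibroblast markers, differed between lines in its dormant minus DMSO difference (limma F test adjusted p = 0.000465), with 7.32 ± 0.36 in HCC4006, -0.02 ± 0.36 in HCC827 and 0.21 ± 0.36 in PC9 on the log2(FPKM + 1) scale. It had 368 and 249.6 FPKM in dormant HCC4006, against 0.77 and 1.04 FPKM in DMSO HCC4006.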

How the results depend on the processing

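The 35 mitosis genes stayed below DMSO in the mean over lines under each alternative run, with 30 to 35 of them called, while counts within a line and counts over all genes moved. The cause of these moves was not tested, except that no filter tests more genes and that leaving out libraries leaves fewer samples. Counts of mitosis genes are of genes called lower, and counts of all genes are in either direction. With all libraries, 34 of the 35 were called in the mean, 4 in PC9, 28 in HCC827, 11 in HCC4006 and 0 as different between lines, and of all genes 2268, 399, 661, 892 and 217 were called in that order.

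A pseudocount of 0.1 gave 1 mitosis gene in PC9 and 6 in HCC4006, and of all genes 246 in PC9, 574 in HCC4006 and 60 different between lines. No filter on low values gave 3 mitosis genes in HCC4006, and of all genes 1498 in the mean and 446 in HCC4006. A filter on a mean of at least 1 FPKM gave 538 of all genes in HCC4006 and 81 different between lines. Median of ratios scaling gave 10 mitosis genes in PC9 and 21 in HCC4006, and 618 of all genes in PC9, and under it the median gene stood at 2.05% of its DMSO level in HCC827 and 22.9% in HCC4006. Quantile normalization gave 10 mitosis genes in PC9, 17 in HCC4006 and 2 different between lines, and 678 of all genes in PC9. Each line fitted alone gave 30 mitosis genes and 2682 of all genes in PC9, and 0 of either in HCC827 and 0 in HCC4006 by limma, where the spread is that of the line itself and 34 and 13 mitosis genes were lower at an unadjusted p under 0.05. Both libraries that stand apart left out gave 34 mitosis genes in PC9, 24 in HCC4006 and 21 different between lines, and of all genes 6086 in the mean, 3294 in PC9, 2635 in HCC827, 2559 in HCC4006 and 1220 different between lines.

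In HCC4006, the difference of TOP2A turned negative without both libraries (-1.71) and under both scalings, at -0.27 with median of ratios and -0.23 with quantiles, and so did that of CENPE (-0.89, -0.14 and -0.28). With each library left out in turn, the HCC4006 difference ranged across 0 for TOP2A (-1.71 to 1.90), CENPE (-0.89 to 1.28), CCNA2 (-0.65 to 0.34), KIF11 (-0.94 to 0.34), HMMR (-1.40 to 1.23), NUSAP1 (-0.97 to 0.24), NUF2 (-1.27 to 0.10) and TTK (-1.32 to 0.14).

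Leaving out each of the 12 libraries in turn gave 30 to 35 mitosis genes in the mean, 0 to 29 in PC9, 3 to 35 in HCC827, 0 to 20 in HCC4006 and 0 to 29 different between lines. Of all genes it gave 986 to 7087 in the mean, 66 to 1644 in PC9, 40 to 3021 in HCC827, 95 to 8303 in HCC4006 and 42 to 7802 different between lines. The level of the median gene was then 20.8% to 25.8% of DMSO in PC9, 2.52% to 3.22% in HCC827 and 21.9% to 38.5% in HCC4006. In the fits with a count of 0 in a line, 13 to 25 mitosis genes were lower there at an unadjusted p under 0.05, and 8 to 18 differed between lines where that count was 0. Where a group keeps 1 library, that library is taken to vary like the other groups.

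Replicate numbers were not used to pair the samples in the main fit. The deviations of replicate 1 from the group mean correlated between dormant and DMSO at 0.0906 in PC9, 0.0372 in HCC827 and 0.168 in HCC4006. With 2 libraries a group, these values cannot show whether samples with the same number were paired. With the replicate number as a block, 0 mitosis genes were called in PC9 (26 at an unadjusted p under 0.05), 16 in HCC827, 1 in HCC4006 and 34 in the mean, and of all genes 123 in PC9, 162 in HCC827, 486 in HCC4006 and 2 different between lines. Absolute depth is unknown, and a gene not called in a line is not shown to be unchanged there.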
